A study of Mus musculus with 38 samples.

Results

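The 8 genes described here encode the proteins that carry, buffer and sense calcium and magnesium in the distal nephron, and they were taken by symbol from the 55487 genes of a raw count table of mouse kidney RNA-Seq. All 8 were found: Trpv5, Calb1, S100g, Slc8a1, Atp2b1, Casr, Trpm6 and Pvalb. The table held 38 libraries in 10 groups from 3 experiments on recombinant human fibroblast growth factor 23 (FGF23), a bone hormone that lowers renal phosphate reabsorption. The first used male C57BL/6JRj mice about 10 weeks old with anti-glomerular basement membrane (anti-GBM) disease, induced with sheep IgG in Freund's complete adjuvant and then nephrotoxic serum, or healthy controls given PBS, which received 1 µg of FGF23 or PBS-BSA vehicle daily for 6 days. It held 4 healthy vehicle, 4 anti-GBM vehicle, 3 healthy FGF23 and 3 anti-GBM FGF23 mice. The second used female BALB/c mice about 10 weeks old given 1 dose of Adriamycin, a podocyte toxin, or saline, with 1 injection of 1 µg of FGF23 or vehicle 24 h before euthanasia, and held 4 mice in each of its 4 groups. The third used precision-cut kidney slices of male DBA/2J mice 23 weeks old, fed adenine for 15 weeks and cultured for 20 h before FGF23 or vehicle, with 4 cultures in each arm and no slices from healthy mice. The labels give 1 h of treatment for the slices, whereas the study's text gives 24 h. In vivo RNA came from a fragment of the kidney's pars intermedia, and the mean log2 CPM of 4 inner medulla markers ran from 1.54 to 4.995 among the healthy vehicle mice of the first experiment alone.

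In the distal convoluted tubule (DCT) and connecting tubule, calcium enters the cell through the apical channel TRPV5, is ferried by calbindins, and leaves across the basolateral membrane through a sodium-calcium exchanger and a plasma membrane calcium pump. The calcium-sensing receptor, encoded by Casr, sits mainly upstream in the thick ascending limb (TAL), where it lowers paracellular calcium reabsorption. TRPM6 is the apical magnesium channel of the DCT, and parvalbumin marks the early DCT. Parathyroid hormone, calcitriol and klotho, the co-receptor of FGF23, are known regulators of this route.

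Trpv5 (ENSMUSG00000036899) lies on the minus strand of GRCm38 at chr6:41652173-41680769, and Casr (ENSMUSG00000051980) on the minus strand at chr16:36493696-36562141. S100g (ENSMUSG00000040808) lies on the minus strand at chrX:162961992-162964599. The promoter windows of these 3 genes are shown because Trpv5 and Casr moved in opposite directions in anti-GBM disease, and S100g encodes the most abundant transcript of the set and is a classical vitamin D target. Each window runs 5′ to 3′ on the gene's strand from 250 bases before to 50 bases after the RefSeq start (GRCm38.p6), at chr6:41680674-41680973, chr16:36562085-36562384 and chrX:162964550-162964849. Capitals mark TATAAA and the hexamers AGGTCA and GGTTCA, which nuclear receptors such as the vitamin D receptor bind in pairs, all searched on both strands.
Trpv5: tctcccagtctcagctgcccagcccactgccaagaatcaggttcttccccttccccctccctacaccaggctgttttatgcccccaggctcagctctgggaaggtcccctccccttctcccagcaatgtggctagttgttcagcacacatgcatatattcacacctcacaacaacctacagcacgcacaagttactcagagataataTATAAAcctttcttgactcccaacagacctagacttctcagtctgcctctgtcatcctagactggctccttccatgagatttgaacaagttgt
Casr: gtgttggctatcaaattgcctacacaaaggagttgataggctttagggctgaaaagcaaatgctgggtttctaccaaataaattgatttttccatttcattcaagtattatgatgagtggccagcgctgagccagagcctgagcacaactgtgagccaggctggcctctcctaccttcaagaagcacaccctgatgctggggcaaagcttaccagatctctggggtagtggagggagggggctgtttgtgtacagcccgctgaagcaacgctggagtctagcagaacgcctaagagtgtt
S100g: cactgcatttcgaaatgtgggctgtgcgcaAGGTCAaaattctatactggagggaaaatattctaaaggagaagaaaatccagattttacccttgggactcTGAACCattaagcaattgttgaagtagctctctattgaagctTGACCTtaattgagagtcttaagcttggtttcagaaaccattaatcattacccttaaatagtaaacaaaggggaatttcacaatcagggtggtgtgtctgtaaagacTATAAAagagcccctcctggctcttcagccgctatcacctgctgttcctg
The Trpv5 window held TATAAA at -43, and the Casr window held none of the 3 motifs. The S100g window held TATAAA once, at 0, and AGGTCA once on each strand, at -220 and on the opposite strand at -107. It held GGTTCA once, on the opposite strand at -149. Positions count bases from the RefSeq start to the motif's first base as shown. The motifs did not overlap, and none of the hexamers adjoined another. Of 32851 promoter windows of the same length, 13.6% held TATAAA, 16.3% AGGTCA and 10.4% GGTTCA. Windows were found for 7 of the 8 genes. These matches describe letters only.

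Levels of different genes were compared as read counts scaled to library size (CPM) per kilobase of exon. In healthy vehicle C57BL/6JRj mice, S100g, the small calbindin, stood at 804 ± 300 CPM per kilobase (SD, n = 4), and Calb1, the larger calbindin, at 106 ± 47.3. Both calbindins were the top genes in every in vivo group, and Trpm6 was the lowest in every in vivo group, with 2.29 ± 1.02 CPM per kilobase in these mice. Pvalb at 16.7 ± 4.51, Casr at 15.4 ± 2.08 and Slc8a1, the sodium-calcium exchanger, at 14.4 ± 5.96 lay within each other's spread. Trpv5 at 8.36 ± 2.66 CPM per kilobase lay above Atp2b1, the calcium pump, at 5.23 ± 0.302, without overlap between single mice.

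**Figure D1:**
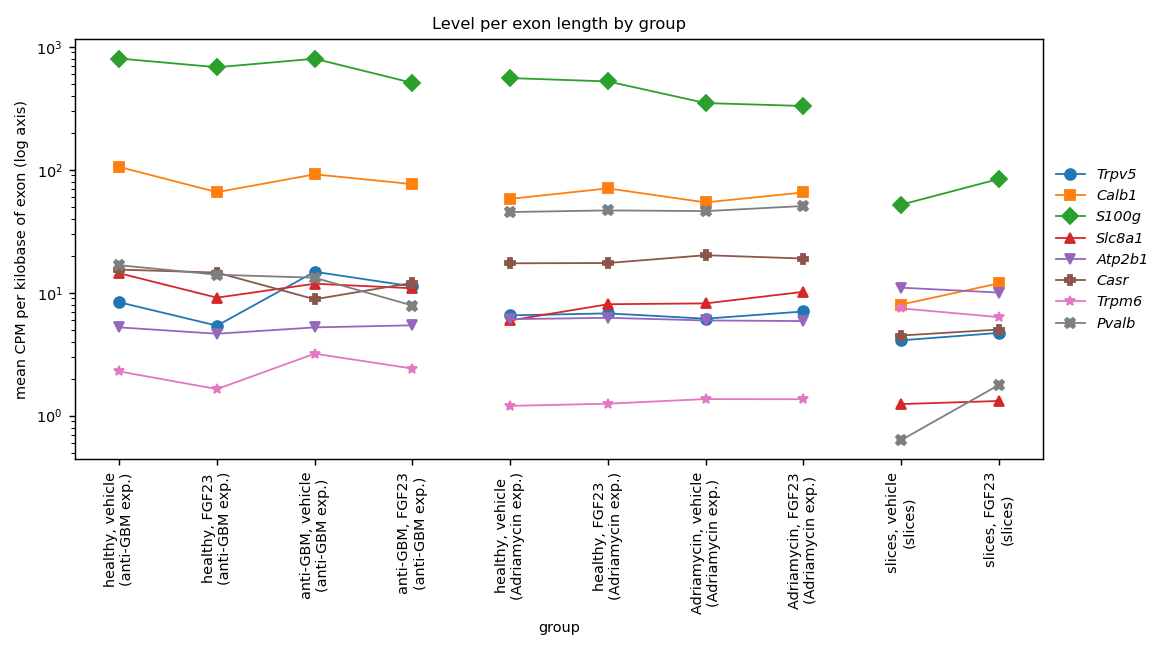
Mean CPM per kilobase of exon (log axis) of each gene in the 10 groups, with a line per gene and experiment. S100g is highest in all groups, Trpm6 is lowest in vivo, and in the slices Atp2b1 and Trpm6 sit near Calb1 while Slc8a1 and Pvalb are lowest.

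Healthy vehicle mice of the 2 in vivo experiments also differed from each other, given here as a description after scaling all 38 libraries together, because strain, sex and experiment cannot be told apart. Pvalb averaged 48.1 CPM (range 42.3 to 50.8) in the female BALB/c mice against 18.9 (range 13.97 to 23.7) in the male C57BL/6JRj mice. Slc8a1 went the other way, with 114 CPM (98.6 to 124) in BALB/c and 294 (198.5 to 452) in C57BL/6JRj mice, and Trpm6 did so too, with 9.44 (8.47 to 10.8) against 19.2 (11.3 to 28). The ranges of these 3 genes did not overlap, nor did those of Atp2b1, at 94.4 CPM (92.7 to 97.2) in BALB/c and 86.4 (79.95 to 89.9) in C57BL/6JRj mice. Those of Trpv5, Calb1, S100g and Casr did overlap. The share of all genes separated in this way was not counted, so the separation cannot be called particular to these genes.

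**Figure D2:**
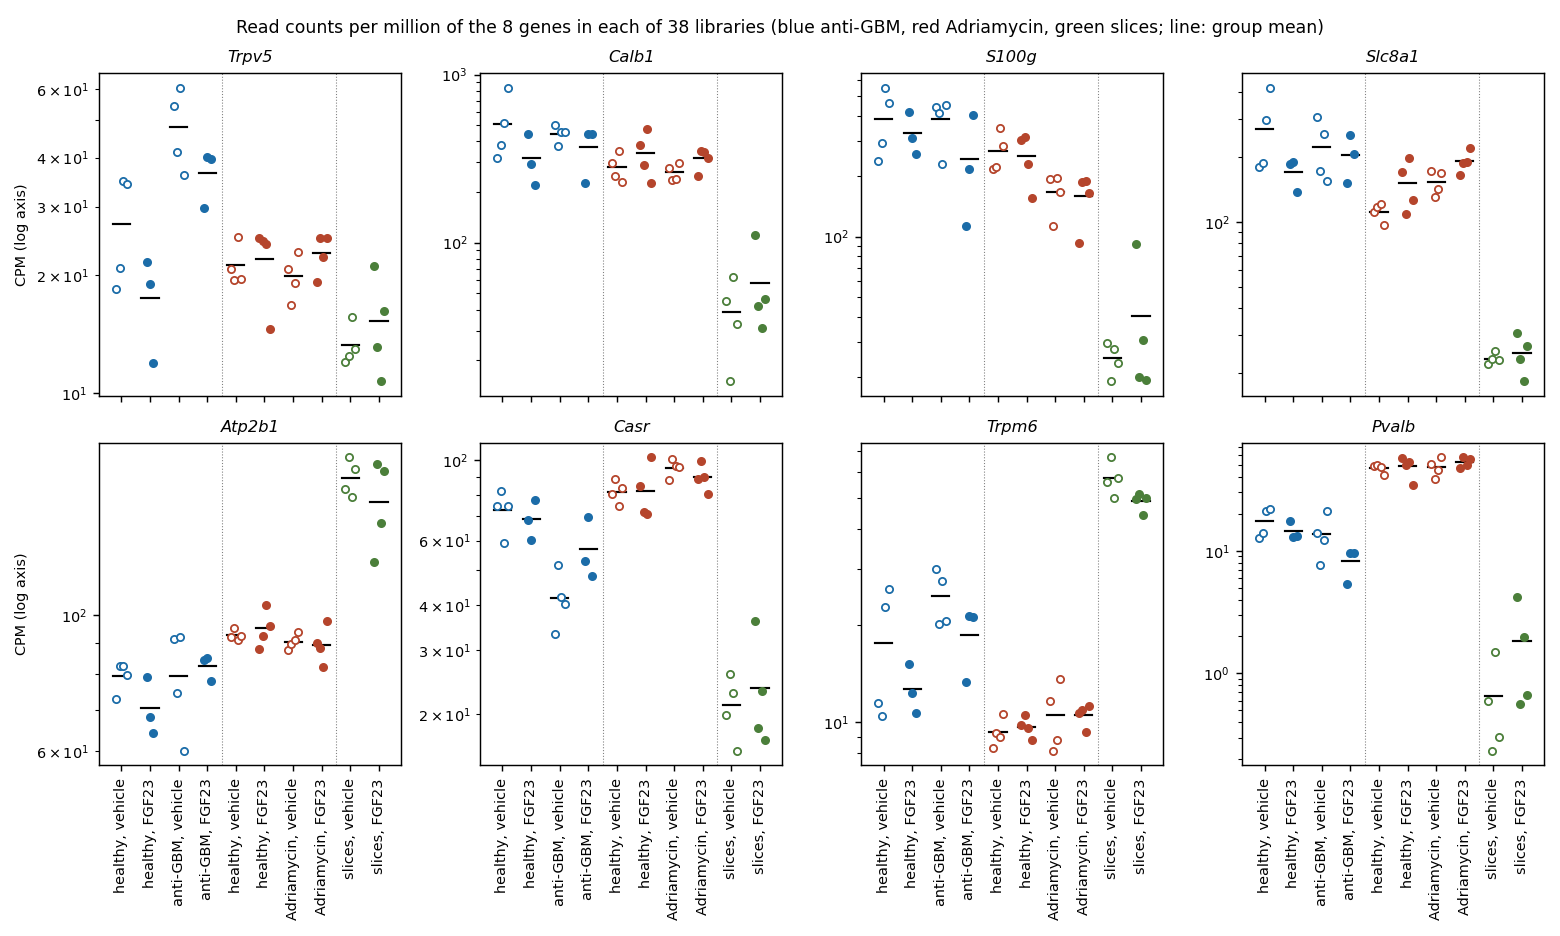
CPM (log axis) of each gene in each of the 38 libraries, scaled within its experiment, by group. Open points are vehicle, filled points are FGF23, and lines are group means. Trpv5 is higher and Casr lower in anti-GBM vehicle than in healthy vehicle mice, with no overlap.

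The anti-GBM comparison asked how an inflammatory glomerular disease changes the kidney's transcripts. Trpv5 rose and Casr fell in it whichever mouse was left out. Pvalb also fell over both treatments, but that call was lost without any 1 of 7 mice. Over both treatments, 1 of 8 genes was higher and 2 were lower at an adjusted p below 0.05 (edgeR's quasi-likelihood test with Benjamini-Hochberg adjustment), against 48.3% of the 15859 genes tested, 23.6% higher and 24.7% lower. In vehicle mice 1 was higher (19.4% of genes) and 1 lower (20.4%), against 39.8% called, and in FGF23 mice 1 was higher (14.5%) and 0 lower (12.7%), against 27.2%. These comparisons share mice. The median log2 fold change over both treatments was -0.0033 over the 8 genes and -0.017 over all genes.

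Trpv5, the entry channel, had 18.5, 20.9, 34.8 and 34.3 CPM in the healthy vehicle mice and 54.2, 41.4, 60.3 and 36.1 CPM in the anti-GBM vehicle mice. Every anti-GBM mouse was above every healthy mouse, although the lowest of the former lay close to the highest of the latter. With FGF23, the healthy mice had 21.6, 18.99 and 11.9 CPM and the anti-GBM mice 29.7, 40.2 and 39.7 CPM, again without overlap. The rise was 1.92-fold over both treatments (log2 0.94, SE 0.18, 95% interval 0.55 to 1.33, adjusted p = 0.000689 by edgeR), with log2 0.83 (adjusted p = 0.0121) in vehicle and 1.05 (adjusted p = 0.0116) in FGF23 mice. It remained called when any single mouse was left out, with log2 changes from 0.87 to 1.06 over both treatments.

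The cytosolic buffers did not pass the test in this disease. Calb1 had 320.4, 381, 512 and 833 CPM in healthy vehicle mice and 499, 374.5, 453 and 453 CPM in anti-GBM vehicle mice. The anti-GBM values all lay inside the healthy range, and over both treatments the log2 change was 0.0087 with an interval from -0.47 to 0.49. S100g had 239, 294, 549.8 and 460.2 CPM in healthy vehicle mice and 443, 414, 229.5 and 450.2 CPM in anti-GBM vehicle mice. The groups overlapped, and the interval over both treatments ran from -0.79 to 0.36.

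The extrusion proteins did not pass it either. Slc8a1 had 181, 188, 296 and 419 CPM in healthy vehicle and 306.5, 172, 255 and 156 CPM in anti-GBM vehicle mice, which overlapped widely. Its interval over both treatments ran from -0.47 to 0.43. Atp2b1 had 72.9 to 82.7 CPM in healthy vehicle and 60.1 to 92.0 CPM in anti-GBM vehicle mice. Its log2 change of 0.11 over both treatments had an interval from -0.078 to 0.31, and it passed the test only when mouse NTS8 was left out, at an adjusted p of 0.0188.

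Casr, the calcium-sensing receptor, had 74.8, 82.2, 59.0 and 74.9 CPM in healthy vehicle mice and 33.3, 51.4, 42.1 and 40.2 CPM in anti-GBM vehicle mice. The groups did not overlap. The log2 change was -0.80 (SE 0.148, adjusted p = 0.000894 by edgeR), a level of 0.574 times that of healthy mice. With FGF23, Casr had 68.4, 60.3 and 77.6 CPM in healthy and 52.8, 69.6 and 47.9 CPM in anti-GBM mice, which overlapped, and the log2 change of -0.28 was not called (adjusted p = 0.249, interval -0.64 to 0.086). Over both treatments it was -0.54 (SE 0.112, adjusted p = 0.00129), and it stayed called without any single mouse. Within groups Casr had a Pearson's r of 0.49 with the mean of the TAL markers Slc12a1, Umod, Egf, Ppp1r1a and Cldn16 over 30 in vivo libraries. It had 0.54 with genes of paracellular calcium transport and 0.33 with inner medulla markers. Of the TAL markers, 0 of 5 were called higher and 1, Egf, lower. The TAL mean log2 CPM ran from 8.23 to 8.89 in healthy vehicle and from 7.13 to 8.65 in anti-GBM vehicle mice. With that mean as a covariate, an alternative chosen after seeing the data, the change of Casr in vehicle mice was -0.67 (adjusted p = 0.00384).

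Trpm6, the magnesium channel, had 11.5, 10.4, 22.8 and 25.97 CPM in healthy vehicle and 30.1, 20.3, 27.6 and 20.7 CPM in anti-GBM vehicle mice. The anti-GBM mice were high, but 2 of the healthy mice reached their range. Over both treatments the log2 change of 0.52 (SE 0.208, interval 0.073 to 0.96) had an adjusted p of 0.0526 by edgeR and was not called. DESeq2 called it (adjusted p = 0.0334), and so did edgeR without any 1 of mice NTS3, NTS4, NTS6, NTS8, NTS9 or NTS13, with adjusted p as low as 0.0124.

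Pvalb, encoding parvalbumin, had 12.7, 14.1, 20.97 and 21.9 CPM in healthy vehicle mice and 13.96, 7.66, 12.3 and 21.2 CPM in anti-GBM vehicle mice, which overlapped. With FGF23 it had 17.5, 12.98 and 13.2 CPM in healthy and 5.38, 9.66 and 9.51 CPM in anti-GBM mice, without overlap. The log2 change over both treatments was -0.59 (SE 0.212, adjusted p = 0.0335 by edgeR). This call was lost without any 1 of mice NTS3, NTS4, NTS5, NTS7, NTS9, NTS11 or NTS13, with adjusted p up to 0.102.

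**Figure D3:**
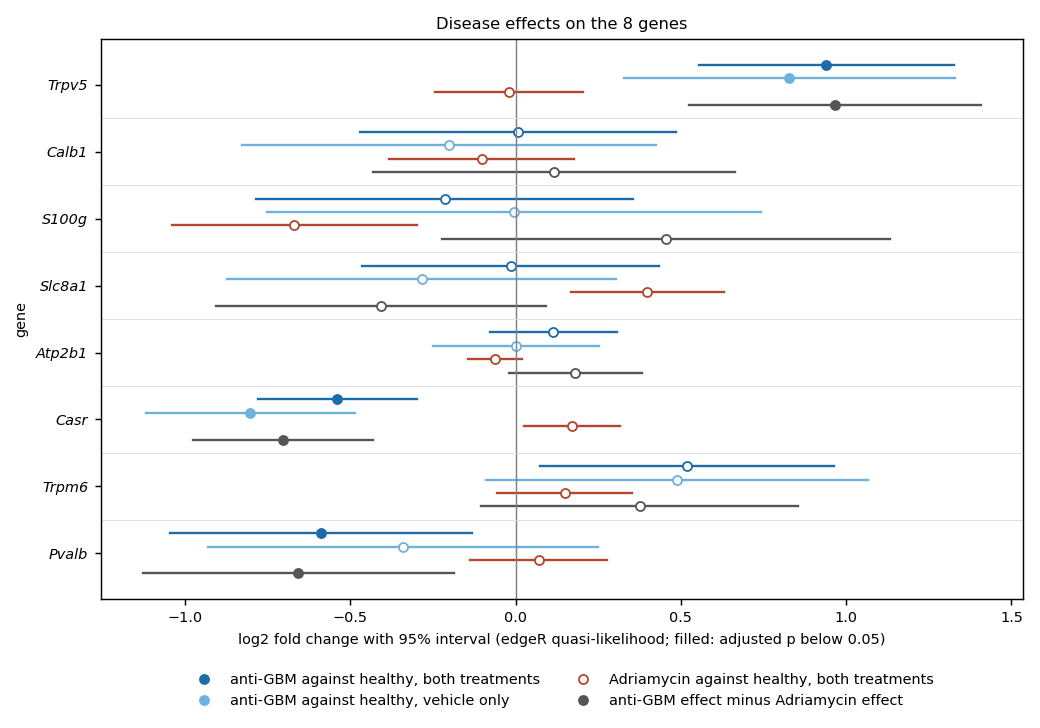
Log2 fold change with 95% interval (x axis) of each gene for anti-GBM against healthy mice, Adriamycin against healthy mice, and the difference between both disease effects. Filled points have an adjusted p below 0.05. Trpv5 lies right of 0 and Casr left of 0 in both anti-GBM contrasts, and neither is called in Adriamycin nephropathy.

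The levels of the entry channel and its partners were read beside the DCT markers Slc12a3, Klhl3, Emx1, Tmem52b, Sgms2 and Wnk4, because in bulk RNA fewer cells of a type and less RNA per cell cannot be told apart. Their mean log2 CPM ran from 7.26 to 7.81 in healthy vehicle mice, from 7.17 to 7.68 in anti-GBM vehicle mice, from 7.17 to 7.38 in healthy FGF23 mice and from 6.86 to 7.26 in anti-GBM FGF23 mice. Over both treatments 1 of these 6 markers was higher (Wnk4) and 2 were lower (Klhl3 and Sgms2), and Slc12a3, the thiazide-sensitive cotransporter, had a log2 change of 0.0070. With the mean of the 6 markers as a covariate, an alternative chosen after seeing the data, the log2 change of Trpv5 over both treatments was 1.21 (adjusted p = 1.62e-05) and that of Casr -0.59 (adjusted p = 0.00171). Of other cell types, 6 of 6 macrophage and leukocyte markers (mean log2 CPM 2.88 to 3.12 in healthy vehicle and 4.16 to 4.90 in anti-GBM vehicle mice) and 5 of 5 fibroblast markers were higher, and 5 of 6 proximal tubule markers were lower (9.95 to 10.4 against 9.36 to 10.1), and their part in the changes of the 8 genes was not tested. In the fit with the DCT covariate Trpm6 was called higher, at 0.87 (adjusted p = 8.43e-05 by edgeR), as was Slc8a1, at 0.33 (adjusted p = 0.0251). Pvalb was no longer called in it, at -0.41 (adjusted p = 0.151). Connecting tubule and principal cell markers averaged 6.07 to 6.37 log2 CPM in healthy vehicle and 6.195 to 6.875 in anti-GBM vehicle mice. With FGF23 they averaged 6.10 to 6.73 in healthy and 6.28 to 6.60 in anti-GBM mice. Of these, Scnn1b, Scnn1g and Hsd11b2 were called higher with either treatment, at log2 0.54, 0.47 and 0.43 in vehicle mice. Aqp3 was called lower in FGF23 mice, and Aqp2, Avpr2, Fxyd4 and Klk1 were not called. Their part was not tested.

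Other genes of the calcium route were counted in the same comparison over both treatments. Of 9 further genes of calcium channels, pumps, exchangers and binding proteins tested, 4 were higher and 0 lower. Trpv6, the closest relative of Trpv5, rose by log2 1.15 (SE 0.154), from 1.33 to 1.92 CPM in healthy vehicle mice to 2.71 to 4.68 CPM in anti-GBM vehicle mice, without overlap. Slc8a2, another sodium-calcium exchanger, rose by 1.27.

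Of 14 regulators, 6 were higher and 3 lower. Those higher included Cyp27b1, which encodes the enzyme that makes calcitriol (log2 1.46, SE 0.328), Sgk1, a kinase (1.90, SE 0.255), and S100a10 and Anxa2 (1.14 and 1.63), whose products form a complex that carries TRPV5 to the membrane. Kl, encoding klotho, fell by 0.65 on the log2 scale (SE 0.134), Vdr, the vitamin D receptor, by 0.35, and Pth1r, the parathyroid hormone receptor, by 0.27.

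Of 11 genes of paracellular calcium transport, 1 was higher and 2 were lower. Cldn14, a claudin that the calcium-sensing receptor is known to induce, had 0 counts in every healthy vehicle mouse, 0 to 1 in healthy FGF23 mice, 1 to 11 in anti-GBM vehicle mice and 6 to 15 in anti-GBM FGF23 mice. Cldn12 fell by 0.65 and Cldn10 by 0.48 on the log2 scale, while Cldn16, a cation pore of the TAL, was not called at 0.16. Of 13 magnesium genes tested, 0 were higher and 4 lower, led by Egf, a stimulator of TRPM6 (-0.94, SE 0.14), and Trpm7, a channel related to TRPM6 (-0.59, SE 0.104). These shares stand beside the 48.3% of all genes called.

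In Adriamycin nephropathy, a toxic podocyte disease, 0 of the 8 genes were called over both treatments, against 1.94% of 16020 genes, 0.968% higher and 0.968% lower. At an unadjusted p below 0.05 by edgeR there were 3 of the 8, against 2404 of the 16020 genes. DESeq2 called 2 of the 8, and its share over all genes is not reported here. In vehicle mice 0 were called against 0.331% of genes, with 3 at an unadjusted p below 0.05 against 1325 of all genes. In FGF23 mice 0 were called against 0.699%, with 2 at that level against 2030 of all genes. DESeq2 called 0 of the 8 in both.

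S100g had 218, 223, 346 and 282.5 CPM in healthy vehicle BALB/c mice and 193, 113, 196 and 168 CPM in Adriamycin vehicle mice, with every diseased mouse below every healthy one. With FGF23 it had 304, 314, 229.9 and 156 CPM in healthy and 93.5, 186, 189 and 165 CPM in Adriamycin mice, which overlapped. The log2 change over both treatments was -0.67 (SE 0.175, interval -1.04 to -0.30, adjusted p = 0.062 by edgeR), and it was called by DESeq2 (adjusted p = 0.0177) and by edgeR without mouse Ad12 (adjusted p = 0.0221).

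Slc8a1 had 111, 118, 122 and 96.9 CPM in healthy vehicle and 173, 131, 142 and 169 CPM in Adriamycin vehicle mice, with no overlap. With FGF23 it had 171.5, 109, 199 and 126 CPM in healthy and 166, 189, 191 and 220.1 CPM in Adriamycin mice. Those groups overlapped, and over both treatments the log2 change of 0.40 (SE 0.109, interval 0.17 to 0.63) had an adjusted p of 0.0746 by edgeR and 0.0155 by DESeq2. By edgeR Slc8a1 passed without Ad6 and without Ad11, with adjusted p as low as 0.0211, and Casr without Ad12, at 0.038.

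Adipocyte markers varied widely among the healthy mice of this experiment. The mean log2 CPM of 4 markers ran from -2.37 to 2.23 in healthy vehicle and from -3.02 to -2.63 in Adriamycin vehicle mice. With FGF23 it ran from -3.08 to 4.63 in healthy and from -2.96 to 0.866 in Adriamycin mice, which overlapped. Over both treatments 1 of the 4 was called lower, and their part in the S100g and Slc8a1 values was not tested.

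The remaining 6 genes had narrow intervals in this disease. Over both treatments the interval for Trpv5 was -0.24 to 0.20, for Calb1 -0.38 to 0.18, for Atp2b1 -0.14 to 0.020, for Casr 0.025 to 0.32, for Trpm6 -0.056 to 0.35 and for Pvalb -0.14 to 0.28. The interval for Casr did not include 0, but its adjusted p was 0.246 by edgeR. A 2-fold change in either direction lay outside all 6 intervals. Among the pathway lists, Cyp27b1 was lower (log2 -1.12, SE 0.252) and S100a10 higher (0.22) among 14 regulators, Trpv4, a calcium channel, was lower (-0.17) among 9 isoforms, and 0 of 10 paracellular and 0 of 13 magnesium genes were called.

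Whether both diseases differed in their effect was tested in 1 fit of the 30 in vivo libraries, as the anti-GBM effect minus the Adriamycin effect, each over both treatments. Sex, strain, treatment length and disease differ together here and cannot be told apart. Of the 8 genes, 1 was higher and 2 were lower, against 41.6% of 16954 genes, 20.8% higher and 20.8% lower. The difference was 0.97 (SE 0.215, adjusted p = 0.000738 by edgeR) for Trpv5, -0.70 (SE 0.133, adjusted p = 0.00013) for Casr and -0.66 (SE 0.229, adjusted p = 0.0227) for Pvalb. The Pvalb difference was lost without mouse NTS9, NTS13 or Ad8, with adjusted p up to 0.0768, and Atp2b1 was called without NTS8, at an adjusted p of 0.00755. With the DCT marker mean as a covariate, Pvalb was not called (adjusted p = 0.245) and Trpm6, Calb1, S100g and Atp2b1 were called higher beside Trpv5. The share of all genes called in that fit is not reported here.

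The comparison of FGF23 with vehicle asked what the hormone does in healthy and diseased kidneys, and none of the 8 genes passed the test in any of 5 settings, by edgeR or by DESeq2. In healthy C57BL/6JRj mice after 6 days 0 of 8 were called, against 0% of genes. At an unadjusted p below 0.05 there were 2, against 689 of the 15859 genes. In anti-GBM mice 0 were called against 0.24% of genes, with 2 at an unadjusted p below 0.05 against 1998 of all genes. In healthy BALB/c mice after 24 h 0 were called against 0%, with 1 at that level against 1072 of 16020 genes. In Adriamycin mice 0 were called against 0.0375%, with 0 at that level against 912. In slices 0 of 7 were called against 0%, with 1 at that level against 738 of 15090 genes.

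In healthy C57BL/6JRj mice all 8 estimates were below 0, from -0.68 for Calb1 to -0.081 for Casr. Trpv5 was at -0.62 (interval -1.18 to -0.063, adjusted p = 0.996 by edgeR) and Slc8a1 at -0.66 (interval -1.31 to -0.015, adjusted p = 0.996). These estimates share the healthy vehicle mice, of which NTS3 and NTS4 were higher than NTS1 and NTS2 for Trpv5, Calb1, S100g, Slc8a1, Trpm6 and Pvalb, and also for the DCT markers, at 7.67 and 7.81 against 7.26 and 7.35. With the DCT marker mean as a covariate, Trpv5 was at -0.24 and Slc8a1 at -0.10. Inner medulla markers also differed between these mice, averaging 1.54 to 4.995 log2 CPM with vehicle and 2.79 to 6.02 with FGF23. Their part was not tested.

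In anti-GBM mice Casr was higher with FGF23 by 0.45 on the log2 scale (interval 0.11 to 0.78, adjusted p = 0.33 by edgeR) and Pvalb lower, at -0.75 (interval -1.41 to -0.089, adjusted p = 0.361), neither of them called. The FGF23 effect in anti-GBM mice minus that in healthy mice was called for 0 of the 8 genes, against 0.0315% of genes. At an unadjusted p below 0.05 there was 1, against 1316 of all genes. That gene was Casr (0.53, interval 0.046 to 1.01, adjusted p = 0.571 by edgeR). This comparison and the anti-GBM comparison in vehicle mice share the same vehicle mice. The intervals of FGF23 against vehicle after 6 days lay between -1.47 and 0.78 over the 8 genes, which for some of them includes a 2-fold decrease.

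After 24 h in BALB/c mice the estimates ran from -0.090 for S100g to 0.44 for Slc8a1 in healthy mice. In Adriamycin mice they ran from -0.089 for Casr to 0.31 for Slc8a1. The largest of these in size lay below the largest of the anti-GBM experiment, but single genes did not all follow this order. Strain, sex and number of doses also differ between the experiments, and the difference was not tested. Slc8a1 in healthy mice had an interval from 0.11 to 0.76 and an adjusted p of 0.688 by edgeR, and its vehicle and FGF23 groups overlapped. All intervals lay between -0.61 and 0.76, within 2-fold. The difference between the FGF23 effects in Adriamycin and healthy mice was called for 0 of 8 genes against 0% of genes. At an unadjusted p below 0.05 there were 0, against 819 of all genes.

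**Figure D4:**
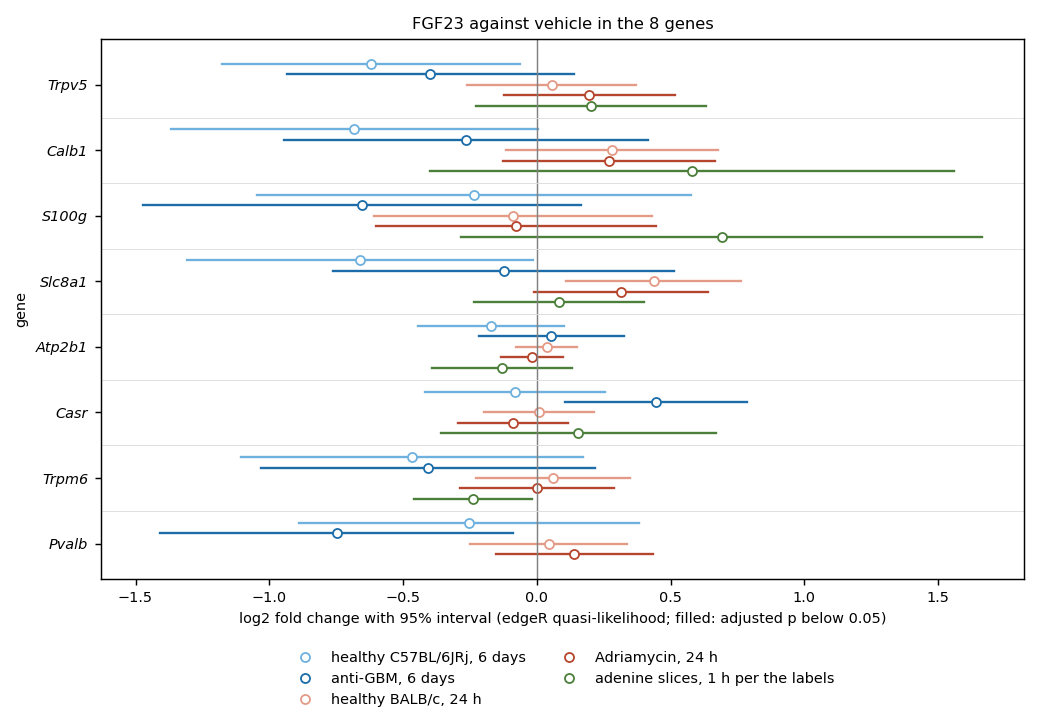
Log2 fold change with 95% interval (x axis) of FGF23 against vehicle for each gene in the 5 settings. All points are open because no adjusted p is below 0.05, and Pvalb has no point for the slices, where it failed the filter on low counts.

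In adenine slices the set had another profile. After scaling all libraries together, Calb1 averaged 31.8 CPM in vehicle slices, against 555 in healthy vehicle C57BL/6JRj and 286.5 in healthy vehicle BALB/c mice. Slc8a1 averaged 19.2 CPM in vehicle slices against 294 and 114, and Pvalb 0.539 against 18.9 and 48.1. Trpm6 and Atp2b1 were higher in the slices, at 47.3 CPM against 19.2 and 9.44 for Trpm6, and at 137 against 86.4 and 94.4 for Atp2b1. Strain, age, adenine diet and culture cannot be told apart in this description. The marker means were scaled within each experiment instead, so they can be set side by side only roughly. That of the DCT markers was 4.93 to 6.51 log2 CPM in slices, against 6.86 to 7.81 in vivo. That of the proximal tubule markers was 4.99 to 6.12 against 9.20 to 10.4.

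Trpm6 had 55.9, 66.8, 49.8 and 57.8 CPM in vehicle slices and 49.8, 51.6, 44.1 and 49.95 CPM with FGF23. The ranges overlapped, and the log2 change was -0.24 (interval -0.46 to -0.016, adjusted p = 0.849 by edgeR). S100g had 29.7, 19.1, 27.5 and 23.6 CPM with vehicle and 91.6, 20.1, 30.7 and 19.3 CPM with FGF23. The first FGF23 culture stood apart, as it did for Calb1, at 111 CPM against 31.2 to 46.5 CPM in the other 3 FGF23 cultures. It had the highest mean of the connecting tubule and principal cell markers as well, at 5.91 log2 CPM against 3.36 on average in vehicle slices. The S100g estimate of 0.69 (interval -0.28 to 1.67) became -0.094 without it. Pvalb had 0.234 to 1.499 CPM with vehicle and 0.563 to 4.19 CPM with FGF23 and was not tested.

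Within groups, several of the 8 genes varied together across the 30 in vivo libraries, which is a description, since libraries of a group also share tissue composition. Deviations of log2 CPM from the group mean had Pearson's r of 0.80 between Trpv5 and Calb1, 0.80 between Calb1 and Slc8a1, 0.78 between Trpv5 and Trpm6 and 0.76 between Slc8a1 and Trpm6. Casr went the other way, with r of -0.49 to Trpv5. The DCT marker mean had r of 0.88 with Trpm6, 0.81 with Slc8a1 and 0.75 with Trpv5, but other lists also went with these genes, for Trpv5 and Calb1 as strongly. Podocyte markers had r of 0.77 with Trpv5, 0.79 with Calb1 and 0.76 with Trpm6, intercalated cell markers 0.79 with Trpm6, and proximal tubule markers 0.71 with Trpv5 and 0.74 with Trpm6, so the covariation was not particular to the DCT list. TAL and inner medulla markers had -0.69 and -0.72 with Trpv5. In the anti-GBM experiment r between Trpv5 and Trpm6 was 0.89 over 14 libraries, and in the Adriamycin experiment it was 0.47 over 16.

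**Figure D5:**
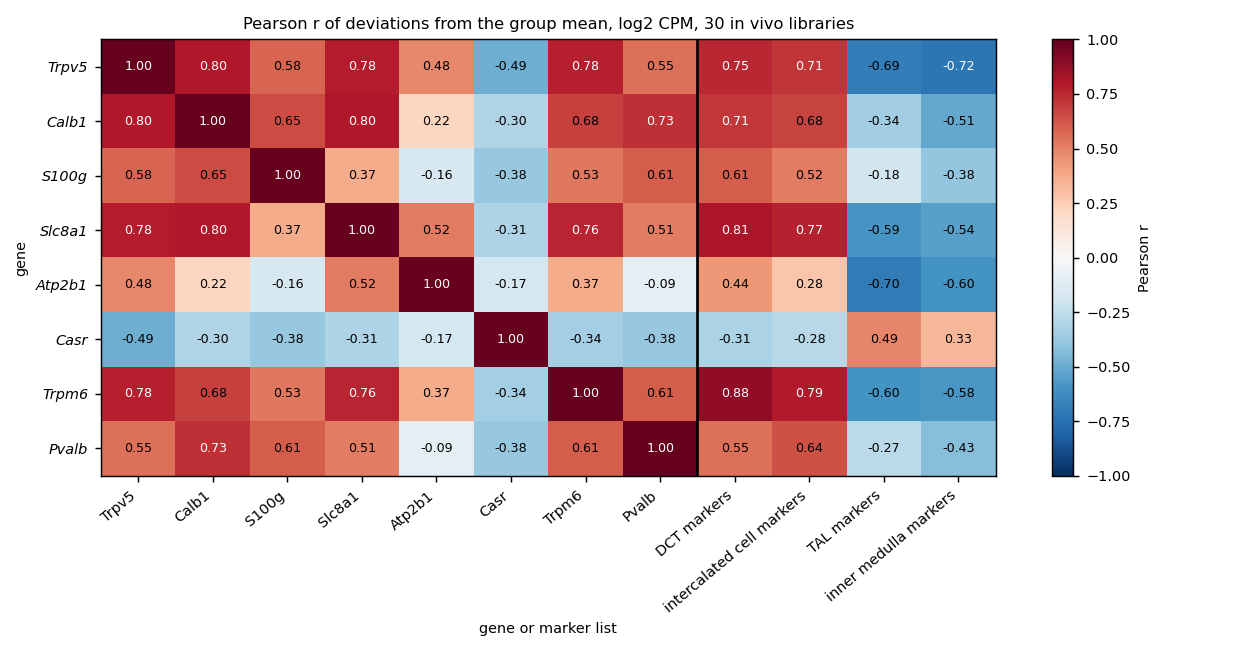
Pearson's r, from -1 (blue) to 1 (red), between deviations of log2 CPM from the group mean in 30 in vivo libraries, for the 8 genes and for the mean of 4 marker lists. Trpv5, Calb1, Slc8a1 and Trpm6 form a red block that includes both the DCT and the intercalated cell markers, and Casr is blue against them.

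Over all 38 libraries, centred on their experiment, the transcripts most like each gene were listed from the 13974 genes tested in every experiment, which leaves out Pvalb. Trpv5 was nearest to Tspan7 (Pearson's r 0.83), Calb1 to Pgam2 (0.87), with the DCT marker Tmem52b (0.81) and Klk1 (0.80), which encodes tissue kallikrein, next. Slc8a1 was nearest to Wnk1 (0.76), the kinase that controls DCT salt transport, and Trpm6 to Rnase4 (0.84), with Trpv5 also among its nearest 5 (0.77). S100g was nearest to Mrps21 (0.80) and Chchd3 (0.80), which encode mitochondrial proteins, Atp2b1 to Nup160 (0.82) and Casr to Dmgdh (0.79). These rankings share libraries, depth and disease state, and by Spearman's rho between 1 and 3 of the top 5 names were shared.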

How the data were processed

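Kidney mRNA of 38 libraries was sequenced from stranded libraries. According to the labels and the study's methods, the authors demultiplexed with bcl2fastq 2.20.0, checked reads with FastQC 0.11.8, aligned them to GRCm38 with STAR 2.7.9a and counted them on Ensembl genes with featureCounts 1.5.1, whose settings for strand and multiple mapping are not given in the sources used here. They deposited raw counts of 55487 genes without normalization. Whole-number values and total counts of 13704248 to 23630210 (anti-GBM), 15665050 to 27583911 (Adriamycin) and 11186925 to 16254987 (slices) per library matched that unit. Libraries were compared for duplication only within their group, where none duplicated another, and pairs across groups were not compared. The closest pair was FGF23 slice cultures 2F and 4F, with a chi-square of 2.12 after division by its degrees of freedom. Vehicle slice cultures 1V and 3V followed at 3.09. Other slice pairs ran from 9.99 to 43.1 and in vivo pairs from 6.45 to 64.3. Whether the close slice cultures shared a donor kidney was not tested.

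In vivo columns were assigned to groups by the labels and the headers of the study's supplementary count tables. The column of mouse NTS14 carries another number in its name, and that table assigns it. Symbols matched 55141 identifiers. The labels call the replicates biological, and the study's text describes those of the slices as independent.

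After TMM scaling, edgeR 4.0.16 in R 4.3.3 fitted quasi-likelihood models to the counts (F test, two-sided, filterByExpr minimum count 10, Benjamini-Hochberg over all genes of a comparison, call at 0.05), each experiment with all its groups in 1 fit and 1 joint fit of the 30 in vivo libraries. The study's methods name DESeq2, which was an alternative here (1.42.0), as were RLE scaling, other filters, an added log2 fold change cutoff of 1, fewer groups and leaving out each library. CPM used TMM within the experiment, and log2 CPM used a prior count of 2. Fits were also run on simulated counts with the same dispersion for every gene and planted changes larger than those reported for the 8 genes. Smaller changes were not simulated, and the outcome is not reported here. The 8 genes and all lists were chosen with earlier results of these data known. Genes named outside the 8 are members of these lists, and the 5 transcripts most like each gene were ranked by Pearson's r. Gene positions and exon lengths came from GENCODE M21. Values of some genes of these lists are not reported here.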

Additional observations from a re-analysis of the deposited data

Results flagged for a closer look

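The anti-GBM effect minus the Adriamycin effect passed the test for 3 of the 8 genes: Trpv5 (log2 0.97), Pvalb (-0.66) and Casr (-0.70).

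In groups of 4, a single library stood far from the other 3 in 3 of 64 combinations of gene and group at the 95% level of Dixon's test, where chance gives about 1 in 20. Trpv5 was at 14.6 CPM in healthy FGF23 mouse Ad12, against 24.1 to 24.9 CPM in the others. S100g was at 229.5 CPM in anti-GBM vehicle mouse NTS7, against 414 to 450.2 CPM. S100g was at 91.6 CPM in the first FGF23 slice culture, against 19.3 to 30.7 CPM.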

How the results depend on the processing

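Of the counts of called genes per comparison and direction, those for FGF23 stayed at 0 under all alternatives run, including DESeq2. With an absolute log2 fold change above 1 also required, the anti-GBM comparison in vehicle mice, the one over both treatments and the difference between both diseases had 0 genes higher and 0 lower. Over both treatments of anti-GBM, 2 genes were higher under RLE scaling, without a filter, with at least 10 counts in every library and in DESeq2, the additional one being Trpm6. In FGF23 mice, anti-GBM against healthy gave 1 gene lower (Pvalb) without a filter, in DESeq2 and with only the groups compared. Over both treatments of Adriamycin, 1 gene was higher (Slc8a1) and 1 lower (S100g) without a filter and in DESeq2. With the DCT marker mean as a covariate, chosen after seeing the data, the genes higher numbered 2 in anti-GBM vehicle mice, 3 in anti-GBM FGF23 mice, 3 over both treatments (1 lower) and 5 in the difference between diseases (1 lower), and 1 was lower over both treatments of Adriamycin. Leaving out 1 library gave 1 to 2 genes higher in anti-GBM vehicle mice, 1 to 3 higher and 1 to 2 lower over both treatments, 0 to 1 higher and 0 to 1 lower over both treatments of Adriamycin, and 1 to 2 higher and 1 to 2 lower in the difference. Signs turned only for genes that were not called. In anti-GBM vehicle mice S100g (-0.0058) was 0.0084 with RLE, 0.026 without a filter, 0.042 with the strict filter, 0.0064 in DESeq2, 0.019 with only the groups compared and 0.39 with the covariate, where Calb1 was 0.23 and Slc8a1 0.092. Over both treatments Slc8a1 (-0.015) was 0.022 without a filter, 0.028 with the strict filter and 0.33 with the covariate, where S100g was 0.11. With the covariate, Trpm6 turned to -0.050 and Pvalb to -0.11 in Adriamycin, and Slc8a1 turned to 0.083 in the difference. Leave-one-out ranges that crossed 0 were, in anti-GBM vehicle mice, -0.33 to 0.18 for Calb1, -0.14 to 0.26 for S100g, -0.435 to 0.047 for Slc8a1 and -0.076 to 0.16 for Atp2b1; over both treatments -0.065 to 0.21 for Calb1 and -0.096 to 0.16 for Slc8a1; -0.097 to 0.024 for Trpv5 in Adriamycin; and in slices -0.094 to 0.92 for S100g, -0.031 to 0.20 for Slc8a1 and -0.12 to 0.28 for Casr. Of 58 estimates given only as a range, 31 turned sign under at least 1 alternative and 2 became called, both with the covariate. The causes were not tested beyond these fits. Same-numbered slices had correlations of 0.105, 0.108, -0.0976 and 0.11 between deviations from the group means. Since 1 of the 4 was below 0.1 and not every culture correlated best with its own number, the numbers were not taken as pairs, although the other 3 were above 0.1. With a replicate block 0 of the 7 genes were called, and the log2 change was 0.41 for S100g and -0.23 for Trpm6 (adjusted p = 0.801 by edgeR), which was lower with FGF23 in all 4 same-numbered pairs. In vivo no paired analysis was possible because those columns carry no replicate numbers shared between groups. Only 4 cultures or 3 to 4 mice per group limit the precision, and intervals wider than 2-fold mark where.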
